A study of Musca domestica with 24 samples.

Results

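The genes described here are 1495 genes on house fly (Musca domestica) chromosome element A that gave counts in both testis and head. They were chosen by the measured counts themselves. A gene was taken when the deposited tables place it on element A, when its name starts with LOC, and when its mean was at least 1 CPM (counts scaled to one common library total) over the 12 testis libraries and at least 1 CPM over the 12 head libraries. The tables hold 16540 genes, of which 2119 lie on element A and 2111 of these have a LOC name. Of those 2111 genes, 132 were under 1 CPM in testis alone, 232 in head alone and 252 in both tissues, which left the 1495. The same rule kept 9794 genes of all elements, with 1393 on element B, 1801 on C, 1529 on D, 2091 on E, 26 on F and 1459 with no element. The study set CSrab males against IsoCS males, 2 strains described by the submitters as isogenic except for their proto-Y chromosomes, each raised at a developmental temperature of 29 °C or 18 °C. The 8 groups were thus CSrab testis at 29 °C, IsoCS testis at 29 °C, CSrab testis at 18 °C, IsoCS testis at 18 °C, CSrab head at 29 °C, IsoCS head at 29 °C, CSrab head at 18 °C and IsoCS head at 18 °C, with 3 biological replicates each. All flies carry a proto-Y, so no group without one is in the comparison. The labels do not give the age of the flies, how many flies went into a library, or which proto-Y a strain carries.

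Element A is the house fly chromosome that geneticists call chromosome III. The house fly has no single fixed Y: a male-determining gene sits on several chromosomes in natural populations, and a chromosome that carries it acts as a young, or proto-, Y. In published descriptions of these strains, which are background and not part of the labels, CSrab males carry the determiner on one copy of chromosome III (IIIM) opposite a standard copy, and IsoCS males carry the determiner on the other common proto-Y (YM) with standard copies of chromosome III only. On that description element A is the chromosome by which CSrab males differ as a sex chromosome pair from IsoCS males, while most of its genes are ordinary autosomal genes in function. A gene that gives counts in both tissues allows the same strain difference to be read in a germline-rich organ and in a somatic one. The deposited tables pair the members with identifiers and scaffolds only, so the members are ordered below by the pattern of their values and not by function.

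Testis libraries held 14916846 to 40005841 counts and head libraries 15690817 to 35694337. The members took a median of 10.5% of the counts in testis libraries, with a range of 8.94% to 11.8%, and a median of 13.4% in head libraries, with a range of 11.9% to 14.4%. Between 1490 and 1495 members had at least 1 count in any one library. The tissue labels could not be checked on marker genes, because 0 of 15 head marker symbols and 0 of 15 testis marker symbols were found in the tables. The CSrab testis library of replicate 3 at 29 °C had the lowest scaling factor of the trimmed mean of M values (TMM), 0.747, and the IsoCS testis library of replicate 3 at 29 °C moved several counts below when it was left out. The labels give no batch or date. These are bulk libraries, in which fewer cells of a type and less RNA per cell cannot be told apart.

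The levels in testis and head describe the choice of the members and were not tested. The median member had 27.2 CPM in testis and 25.9 CPM in head. The log2 ratio of testis over head ranged from -8.22 to 8.33 with a median of -0.03, and 739 members were higher in testis than in head. At least 4 times as many CPM in testis as in head were counted for 170 members, at least 4 times as many in head as in testis for 181, and 1144 lay between. The members just inside the testis threshold were LOC101889643 with 1.01 CPM in testis and LOC101888532 with 1.02 CPM. The genes just outside it were LOC101892282 with 0.998 CPM and LOC101891399 with 0.990 CPM. At the head threshold, LOC101889747 with 1.01 CPM in head and LOC101894335 with 1.03 CPM were inside, and LOC101900752 with 0.986 CPM and LOC101899824 with 0.960 CPM were outside.

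**Figure D1:**
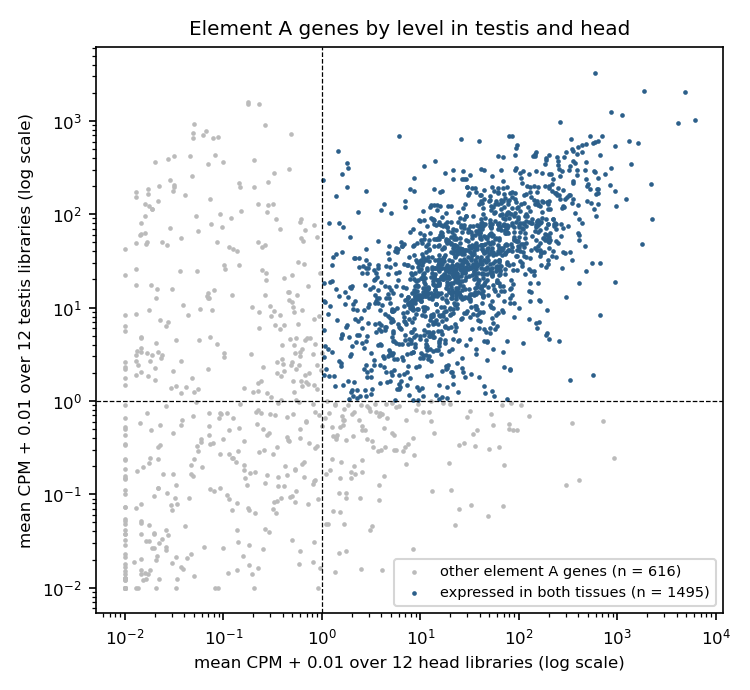
Mean CPM plus 0.01 in testis (vertical log axis) against mean CPM plus 0.01 in head (horizontal log axis) for the 2111 LOC genes of element A, with dashed lines at 1 CPM. The 1495 genes in the upper right field are the ones described here, and they spread over several orders of magnitude on both sides of equal levels.

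LOC101888899 had the highest ratio of testis over head. It averaged 472 CPM over the testis libraries and 1.46 CPM over the head libraries. LOC101889747 followed with 233 CPM in testis and 1.01 CPM in head. Both genes sat above 100 CPM in each of the 12 testis libraries. LOC101896346 averaged 357 CPM in testis and 1.79 CPM in head, but its head mean came mainly from 2 libraries, CSrab replicate 2 at 29 °C with 4.63 CPM and IsoCS replicate 3 at 29 °C with 15 CPM. At the other end, LOC101892434 averaged 1.91 CPM in testis and 567 CPM in head, and LOC101900822 averaged 1.68 CPM in testis and 332 CPM in head. LOC101901499 averaged 8.37 CPM in testis and 673 CPM in head. Its head values were 382, 92.0 and 17.0 CPM in CSrab at 29 °C, 209, 27.1 and 1069 CPM in IsoCS at 29 °C, 1366, 741 and 99.1 CPM in CSrab at 18 °C, and 1895, 907 and 1337 CPM in IsoCS at 18 °C. Replicates of one group thus differed by more than the groups did.

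The members with most counts were LOC101892606 in testis, at 3272 CPM, and LOC101889408 in head, at 6108 CPM. CPM are not divided by gene length, so these values do not order the genes by transcript number. LOC101888968 was nearly level between the tissues, at 2110 CPM in testis and 1852 CPM in head. LOC101895238, on the scaffold with most members, had 2058 CPM in testis and 4848 CPM in head. LOC101894079 with 1254 CPM in testis and LOC101890481 with 1156 CPM in testis completed the 5 highest there. In heads the other 3 were LOC101887935 with 4090 CPM, LOC101901765 with 2272 CPM and LOC101894605 with 2210 CPM. LOC101901765 showed the same unevenness as LOC101901499: 3289, 1129 and 70.2 CPM in CSrab heads at 29 °C and 1273, 83.5 and 2903 CPM in IsoCS heads at 29 °C. The lowest values of both genes fell in the same libraries, replicate 3 of CSrab heads and replicate 2 of IsoCS heads at 29 °C. Replicate 3 was also the lowest of the CSrab heads at 18 °C, with 197 CPM of LOC101901765.

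The first question of the design is how expression differs between males with different proto-Y chromosomes. Strain calls in testes numbered 199 members at 29 °C, with 109 higher in CSrab than in IsoCS and 90 lower, and 201 members at 18 °C, with 113 higher and 88 lower. In heads the calls were fewer, 80 at 29 °C (50 higher and 30 lower) and 71 at 18 °C (39 higher and 32 lower). A gene was called when its adjusted p was under 0.05 in the quasi-likelihood test of edgeR, with p-values adjusted by Benjamini and Hochberg's method over all genes tested in the tissue. Of the members, 1494 were tested in testis and 1495 in head, and LOC105261794 was the one not tested in testis. The typical called member differed by somewhat less than 2-fold: the median size of the log2 change was 0.98 in testes at 29 °C, 0.97 in testes at 18 °C, 0.89 in heads at 29 °C and 0.88 in heads at 18 °C. Log2 changes of at least 2 were found for 25 called members in testes at 29 °C, 28 in testes at 18 °C, 14 in heads at 29 °C and 10 in heads at 18 °C.

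The shares of members called lay slightly above those of all genes tested. In testes at 29 °C 13.3% of the members were called, against 10.9% of all tested genes, of which 5.3% were higher in CSrab and 5.58% lower. At 18 °C the share in testes was 13.5% of members against 12.7% of all tested genes (7.56% higher and 5.15% lower). In heads at 29 °C it was 5.35% of members against 4.41% (2.7% higher and 1.71% lower), and at 18 °C 4.75% of members against 3.27% (1.9% higher and 1.37% lower). Genes picked by the same expression rule on elements B to E are a closer comparison, and there the gap was wider. The shares called in testes at 29 °C were 7.75% on element B, 7.22% on C, 6.41% on D and 6.74% on E. In testes at 18 °C they were 10.3% on B, 8% on C, 10% on D and 9.37% on E. In heads they ranged from 2.35% on D to 4.16% on E at 29 °C and from 2.03% on D to 2.87% on B at 18 °C. Element A had the highest share of elements A to E in every one of 18 settings of the fit for testes at 29 °C, testes at 18 °C and heads at 18 °C, and in 17 of 18 for heads at 29 °C, where a fit of those 2 groups alone called 1.14% on A and 1.2% on E. The 1459 genes with no element that passed the same rule had shares like those of element A: 10.7% in testes at 29 °C, 13.6% in testes at 18 °C, 6.44% in heads at 29 °C and 5.14% in heads at 18 °C, the last 3 above element A. No test between elements was made.

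**Figure D2:**
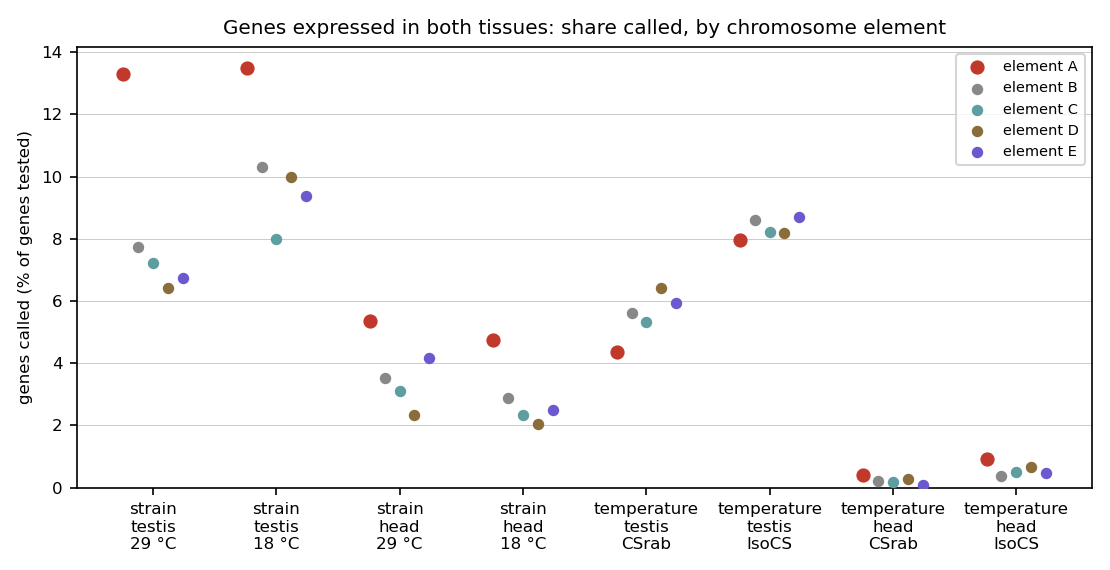
Percentage of tested genes called (vertical axis) in the 4 strain and 4 temperature comparisons (horizontal axis), for genes with at least 1 CPM in both tissues on elements A to E, 1 point per element. Element A (red) is the highest point in the strain comparisons, at 13.3% and 13.5% in testes, and lies among or below the other elements in the temperature comparisons in testes.

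The direction of the strain effect was balanced over the members. Their median log2 change of CSrab over IsoCS was 0.03 in testes at 29 °C, -0.02 in testes at 18 °C, -0.02 in heads at 29 °C and -0.05 in heads at 18 °C, where the medians of all tested genes in the 4 comparisons lay between -0.02 and 0.01. The spread was wider than on elements B to E: the median size of the log2 change was 0.30 on element A in testes at 29 °C, against 0.25 to 0.26 on B to E, and 0.25 on A in heads at 29 °C, against 0.21 to 0.23. Genes with no element had a wider spread than element A, with 0.39 in testes and 0.33 in heads at 29 °C. Called members were found at all levels of counts. In testes at 29 °C 13% of the 499 members with the lowest mean testis CPM (1.01 to 15.5 CPM) were called, 14.7% of the 498 in the middle and 12.2% of the 498 highest. Shares by the tissue of the higher level were as follows: in testes at 29 °C 22.4% of the members with at least 4 times the CPM of head were called, 13% of those within 4 times and 6.63% of those with at least 4 times the CPM in head. The same classes gave 21.8%, 12.8% and 9.39% in testes at 18 °C, and 5.88%, 5.42% and 4.42% in heads at 29 °C. In heads at 18 °C the order ran the other way, with 4.12%, 4.81% and 4.97%. The shares of all genes in these classes are not given here, and whether the order is particular to the members was not tested. Members that were under 1 CPM in at least one group of the tissue numbered 65 in testis and 51 in head. They had passed the rule through their higher groups and so had to differ. They gave 11 of the 199 calls in testes at 29 °C and 7 of the 201 at 18 °C. In heads they gave 11 of the 80 calls at 29 °C and 7 of the 71 at 18 °C. Among them in testis were LOC101896886, LOC105261849, LOC101892891, LOC101894565 and LOC105262038, named below. Among them in head were LOC101896886, LOC101891053, LOC101893651, LOC105261537, LOC109612782, LOC101894565, LOC101898830, LOC101897848 and LOC101899531.

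These counts depended on single libraries. Leaving out IsoCS testis replicate 3 at 29 °C gave 387 called members in testes at 29 °C. Leaving out CSrab replicate 1, CSrab replicate 2 or IsoCS replicate 1 of the same groups gave 131, 118 and 132. In testes at 18 °C the count was 120, 105 and 106 without CSrab replicates 1, 2 and 3, and 105 and 116 without IsoCS replicates 1 and 2. In heads at 29 °C it was 51 without CSrab replicate 2 at 18 °C, 52 and 36 without CSrab replicates 1 and 2 at 29 °C, and 33, 31 and 42 without IsoCS replicates 1, 2 and 3 at 29 °C. In heads at 18 °C it was 40, 29 and 33 without CSrab replicates 1, 2 and 3, and 33, 41 and 29 without IsoCS replicates 1, 2 and 3.

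Strain calls recurred between temperatures. Of the 199 members called in testes at 29 °C and the 201 called at 18 °C, 116 were shared, which is 58.3% and 57.7% of the lists, and 115 of them had the same sign. Over all tested genes 5.77% were called at both temperatures with the same sign in testis, and among the members 7.7%, with 69 higher and 46 lower in CSrab. The exception in sign was LOC105261920, described with the interaction. In heads 37 members were shared, 46.2% of the list at 29 °C and 52.1% of the list at 18 °C, all with the same sign, 19 higher and 18 lower. That is 2.47% of the members, where 1.85% of all tested genes met the same condition. Across the members, which share the libraries of each comparison, the log2 changes at 29 °C and 18 °C had a Pearson correlation of 0.61 in testis and 0.69 in head, as a description. Between tissues the lists shared 13 members at 29 °C, which is 6.53% of the testis list and 16.2% of the head list, and 21 at 18 °C, which is 10.4% and 29.6%. Over all genes tested in both tissues the shared calls were 11.5% and 23.9% of the lists at 29 °C and 9.77% and 33% at 18 °C. The correlation of the log2 changes between testis and head was 0.17 at 29 °C and 0.22 at 18 °C over the members, and 0.16 and 0.30 over all genes tested in both tissues.

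**Figure D3:**
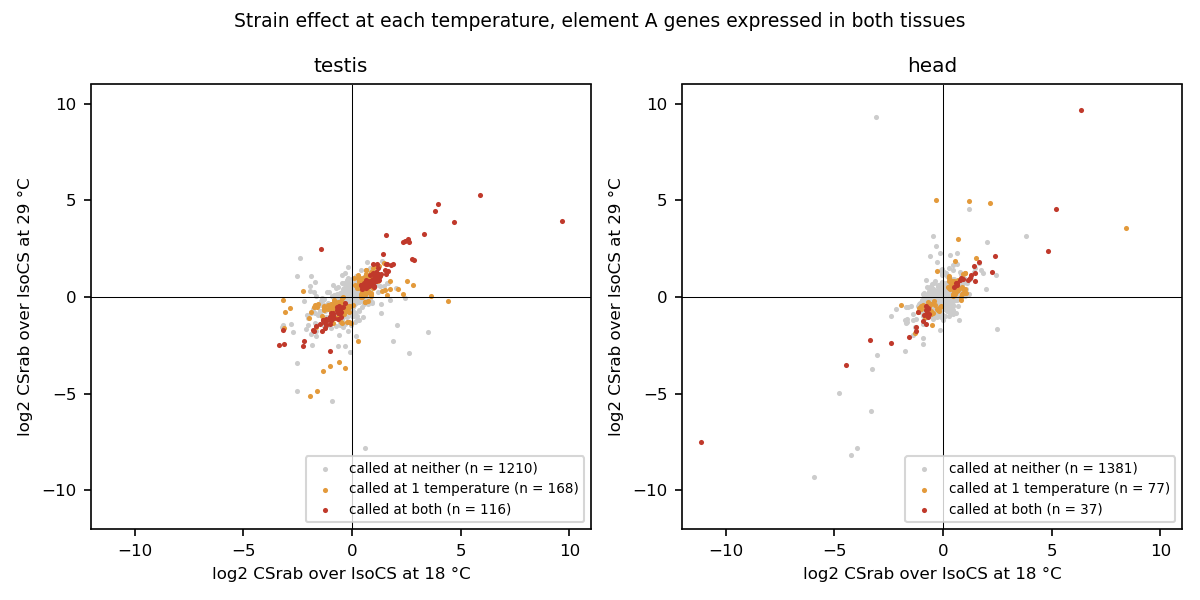
Log2 change of CSrab over IsoCS at 29 °C (vertical axis) against that at 18 °C (horizontal axis) for the members, in testis (left) and head (right); grey points were called at neither temperature, orange at 1 and red at both. The 116 red points in testis and the 37 in head lie along the rising diagonal, apart from LOC105261920 in testis.

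Counted over the 4 strain comparisons, 372 members, or 24.9%, were called in at least 1, where 20.1% of all tested genes were. On the other elements with the same expression rule the share was 17.1% on B, 15.3% on C, 15.8% on D, 17% on E and 15.4% of the 26 genes on F, and 22.8% of the genes with no element. Of the 372 members, 258 (69.4%) were called in testis only, 88 (23.7%) in head only and 26 (6.99%) in both tissues. The split was near that of all 2183 genes called among the 11321 tested in both tissues, at 70.1%, 20.8% and 9.02%. Calls in opposite directions were found for 4 members (0.268%), LOC105261920, LOC101889254, LOC101895763 and LOC101897616, the second of which was singled out after its values had been seen. Between tissues, 1 of the 13 shared calls of members at 29 °C and 3 of the 21 at 18 °C had opposite signs. Over all genes tested in both tissues these were 18 of 118 and 13 of 121. Between temperatures, 1 of the 116 shared calls of members in testis and 0 of the 37 in head had opposite signs. Over all tested genes these were 10 of 776 in testis and 2 of 231 in head. In total, 925 members, or 61.9%, were called in 0 of the 12 comparisons made in this study. The share over all genes is not given here. In the 4 strain comparisons 7 members were called with the same sign every time, 4 higher and 3 lower in CSrab. That is 0.469% of the members, near the 0.486% of all genes tested in both tissues that met the condition. The values of these 7 follow.

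LOC101896886, on scaffold NW_004765367, was higher in CSrab in every comparison, and at or near 0 in IsoCS at 18 °C. In both tissues it passed the 1 CPM rule through its CSrab libraries, so a strain difference was built into its choice. Testes at 29 °C had 3.21, 2.68 and 3.38 CPM in CSrab replicates 1 to 3, against 0.140, 0.450 and 0.0588 CPM in IsoCS. In testes at 18 °C the CSrab values were 4.02, 3.96 and 3.99 CPM, and all 3 IsoCS libraries were at 0. Heads repeated the picture at a lower level of contrast, with 2.12, 1.76 and 3.67 CPM in CSrab at 29 °C against 0.625, 0.431 and 0.365 CPM in IsoCS, and 2.41, 2.48 and 2.08 CPM in CSrab at 18 °C against 0.108, 0.0567 and 0.0649 CPM in IsoCS. The groups did not overlap in any of the 4 comparisons. The log2 change was 3.93 ± 0.58 (SE) in testes at 29 °C, with an adjusted p of 0.00377 in edgeR's quasi-likelihood test, and in testes at 18 °C the gene was at least 38.2-fold higher in CSrab than a floor of 3 counts per IsoCS library allows. In heads it was 5.29-fold higher at 29 °C (adjusted p 0.00499, edgeR). At 18 °C 156 counts in CSrab heads stood against 4 counts in IsoCS heads, a ratio of 30.1 with an exact 95% interval of 11.5 to 112 that covers counting error only. Fits of the 2 groups alone gave adjusted p-values of 0.0511 in testes and 0.0625 in heads at 29 °C.

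LOC105261849, on NW_004765161, was also several-fold higher in CSrab throughout. It passed the testis threshold of 1 CPM through its CSrab libraries, so a testis difference was built into its choice. Testes at 29 °C had 5.35, 5.86 and 5.4 CPM in CSrab, against 0.363, 0.350 and 0.412 CPM in IsoCS. In testes at 18 °C it had 9.55, 9.86 and 8.48 CPM in CSrab, against 0.218, 0.530 and 0.332 CPM in IsoCS. In heads it had 5.71, 4.46 and 5.85 CPM in CSrab at 29 °C, against 1.13, 0.554 and 1.99 CPM in IsoCS, and 9.60, 8.65 and 6.15 CPM in CSrab at 18 °C, against 2.16, 0.965 and 1.56 CPM in IsoCS. No IsoCS value reached the lowest CSrab value of its comparison. The log2 change was 3.86 ± 0.30 (SE) in testes at 29 °C and 4.70 ± 0.31 at 18 °C, with adjusted p-values of 5.54e-05 and 2.92e-05 in edgeR's test. In heads it was 2.13 ± 0.44 at 29 °C and 2.38 ± 0.44 at 18 °C, with adjusted p-values of 0.0241 and 0.0197 (edgeR). The head calls were lost under 5 of 17 alternatives at 29 °C and 4 of 17 at 18 °C, among them leaving out CSrab replicate 1 or 2 of the temperature in question, IsoCS replicate 1 or 2 at 29 °C, or IsoCS replicate 2 or 3 at 18 °C, with adjusted p-values up to 0.107 and 0.0789.

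LOC101896783 and LOC101899612 were also higher in CSrab in every comparison. LOC101896783 had 7.13, 6.54 and 6.46 CPM in CSrab testes at 29 °C, against 2.04, 1.70 and 1.56 CPM in IsoCS testes. At 18 °C it had 7.09, 8.22 and 9.90 CPM in CSrab testes, against 1.22, 1.10 and 1.19 CPM in IsoCS testes, so that the strains stood 7.12-fold apart (adjusted p 5.27e-05, edgeR) where they stood 3.79-fold apart at 29 °C (adjusted p 0.000315). In heads its level was higher and the strains were closer, at 29 °C with 26.9 ± 4.37 CPM in CSrab against 12.3 ± 2.70 CPM in IsoCS, and at 18 °C with 23.3 ± 2.69 CPM in CSrab against 9.65 ± 1.66 CPM in IsoCS (SD, n = 3 each). The head call at 29 °C was lost in the fit of 2 groups alone and without CSrab replicate 2 or IsoCS replicate 1 at 29 °C, with adjusted p-values up to 0.0725. LOC101899612 averaged 45.7 ± 8.52 CPM in CSrab testes and 17.3 ± 2.83 CPM in IsoCS testes at 29 °C, and 47.5 ± 2.26 CPM in CSrab testes and 16.7 ± 1.48 CPM in IsoCS testes at 18 °C. Its head values were 11.2, 19.8 and 15.9 CPM in CSrab at 29 °C, against 5.70, 6.49 and 6.60 CPM in IsoCS, and 25, 28.3 and 15.7 CPM in CSrab at 18 °C, against 5.30, 5.05 and 4.28 CPM in IsoCS. Its strain ratio was thus 2.64 and 2.84 in testes at 29 °C and 18 °C, and 2.49 and 4.71 in heads, with adjusted p-values between 0.000354 and 0.0169 in edgeR's test. The call in heads at 29 °C was lost in the fit of 2 groups alone and without CSrab replicate 2 or any 1 of the IsoCS replicates at 29 °C, with adjusted p-values up to 0.0742.

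LOC101891053, on NW_004764821, was the member with the strongest deficit in CSrab, and the deficit was far deeper in heads. It passed the head threshold of 1 CPM through its IsoCS libraries, so a head difference was built into its choice. In heads at 29 °C it had 0.0423, 0 and 0.0287 CPM in CSrab, against 1.41, 6.89 and 7.54 CPM in IsoCS. In heads at 18 °C all 3 CSrab libraries were at 0, against 8.65, 13.8 and 12.5 CPM in IsoCS. In testes the gene was well counted in both strains, with 74.7, 81.0 and 60.6 CPM in CSrab at 29 °C against 224, 103 and 246 CPM in IsoCS, and 63.5, 63.8 and 61.5 CPM in CSrab at 18 °C against 167, 151 and 206 CPM in IsoCS. The groups did not overlap in either tissue at either temperature. In CSrab heads at 29 °C there were 2 counts in all, against 446 in IsoCS heads, a ratio of 223 of IsoCS over CSrab with an exact 95% interval of 61.4 to 1849. At 18 °C it was at least 83.8-fold lower in CSrab heads, with the floor of 3 counts per library. In testes it was 2.65-fold lower in CSrab at 29 °C and 2.77-fold lower at 18 °C (adjusted p 0.00872 and 0.00615, edgeR). The fit of the 2 testis groups at 29 °C alone gave an adjusted p of 0.0943.

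LOC101896729 and LOC101899918 were lower in CSrab by 1.48-fold to 2.67-fold in both tissues. LOC101896729 had 31.7, 36.3 and 47.3 CPM in CSrab testes at 29 °C, against 93.2, 121 and 88.0 CPM in IsoCS testes, and 42.8, 45.4 and 45.5 CPM in CSrab heads at 29 °C, against 99.7, 129 and 128 CPM in IsoCS heads. At 18 °C it averaged 50.4 ± 1.66 CPM in CSrab testes and 101 ± 6.57 CPM in IsoCS testes, and 70.3 ± 1.81 CPM in CSrab heads and 120 ± 18.2 CPM in IsoCS heads. The ratio of this gene was much alike between the tissues at 29 °C, with log2 changes of -1.39 ± 0.17 (SE) in testes and -1.42 ± 0.14 in heads (adjusted p 0.000604 and 0.000773, edgeR). LOC101899918 averaged 65.8 ± 1.78 CPM in CSrab testes and 97.3 ± 3.84 CPM in IsoCS testes at 29 °C, and 30.6 ± 0.672 CPM in CSrab heads and 63.4 ± 3.43 CPM in IsoCS heads. Its replicates lay close together, and a log2 change of -0.56 ± 0.09 in testes at 29 °C was called with an adjusted p of 0.00259 (edgeR); the fit of the 2 groups alone gave 0.0748. Both calls in heads at 18 °C were lost without single libraries, for LOC101896729 without any 1 of the CSrab replicates or without IsoCS replicate 1 or 3, with adjusted p-values up to 0.0638, and for LOC101899918 without CSrab replicate 2 or 3 or IsoCS replicate 1 or 2, with adjusted p-values up to 0.101.

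LOC101889254, on NW_004765612, was called in all 4 strain comparisons as well, but in opposite directions in the tissues. It was named after its values had been seen. In testes at 29 °C it had 81.2, 103 and 78.5 CPM in CSrab, against 167, 158 and 175 CPM in IsoCS, and at 18 °C 75.3, 78.5 and 88.9 CPM in CSrab, against 146, 137 and 166 CPM in IsoCS. In heads it had 24.9, 22.5 and 35.9 CPM in CSrab at 29 °C, against 15.3, 17.1 and 13.7 CPM in IsoCS, and 28.1, 26.2 and 32.2 CPM in CSrab at 18 °C, against 10.9, 10.7 and 9.54 CPM in IsoCS. The groups did not overlap in any comparison: the gene was 1.90-fold lower in CSrab testes at 29 °C and 1.85-fold lower at 18 °C, and 1.81-fold higher in CSrab heads at 29 °C and 2.77-fold higher at 18 °C. The adjusted p-values were 0.00156, 0.00175, 0.0249 and 0.00241 in edgeR's test. The call in heads at 29 °C was lost with a replicate block, in the fit of 2 groups alone and without any 1 of the IsoCS replicates at 29 °C, with adjusted p-values up to 0.132.

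**Figure D4:**
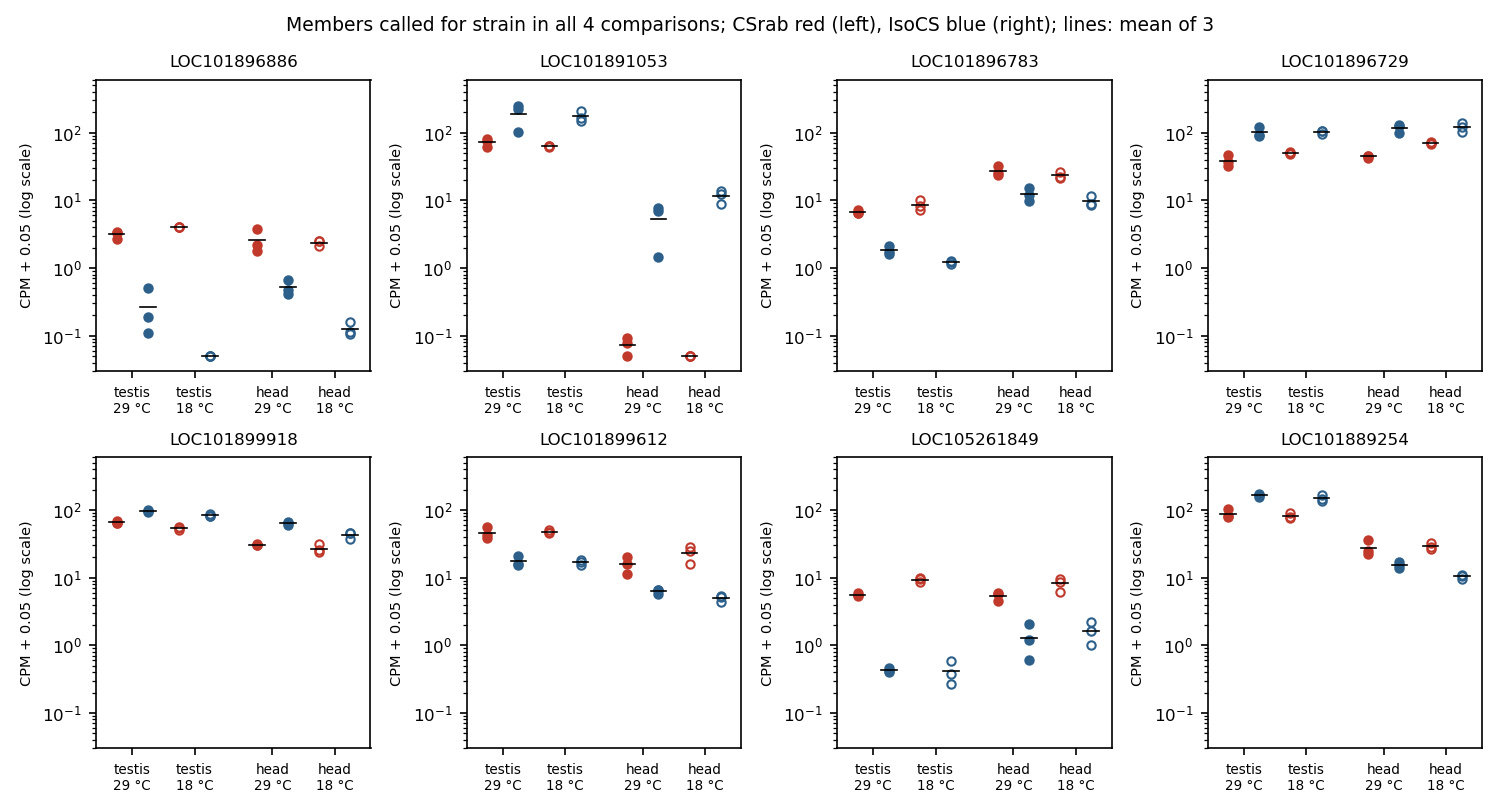
CPM plus 0.05 (vertical log axis) in each of the 24 libraries for the 8 members called in all 4 strain comparisons, by tissue and temperature (horizontal axis), with CSrab in red on the left and IsoCS in blue on the right of each pair; filled points are 29 °C, open points 18 °C, and lines are means of 3. LOC101896886 and LOC105261849 stand higher in CSrab everywhere, LOC101891053 is at or near 0 in CSrab heads, and LOC101889254 is lower in CSrab testes and higher in CSrab heads.

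Large strain differences in testes were also found in members that were not called in heads. LOC101892891, on NW_004764524, had 23.0, 25.9 and 19.4 CPM in CSrab testes at 29 °C, against 0.726, 0.699 and 0.323 CPM in IsoCS testes, and 12.2, 11.5 and 14.0 CPM in CSrab testes at 18 °C, against 0.191, 0.353 and 0.0995 CPM in IsoCS testes. In heads at 29 °C the strains overlapped, with 41.5, 44.4 and 62.9 CPM in CSrab beside 40.0, 51.2 and 32.8 CPM in IsoCS. The testis difference was 39-fold at 29 °C and 59.3-fold at 18 °C (adjusted p 5.37e-05 and 5.15e-05, edgeR). LOC101890926, on NW_004764514, had 78.7, 101 and 65.8 CPM in CSrab testes at 29 °C, against 3.32, 3.40 and 2.03 CPM in IsoCS testes, a 28.2-fold difference (adjusted p 1.63e-05, edgeR), while its heads at 29 °C ran from 659 to 1907 CPM in CSrab, beside 316 to 857 CPM in IsoCS. At 18 °C its heads had 558, 554 and 1037 CPM in CSrab, above the 304, 318 and 265 CPM in IsoCS, and neither head difference was called (adjusted p 0.252 at 29 °C and 0.212 at 18 °C, edgeR). LOC101898822, on NW_004764802, had 53.8, 56.6 and 38.6 CPM in CSrab testes at 29 °C, against 2.54, 2.85 and 1.44 CPM in IsoCS testes, or 21.9-fold more (adjusted p 0.000223, edgeR). Its head counts were scattered, with 6.90, 26.9 and 1.44 CPM in CSrab at 29 °C beside 0.156, 0.0923 and 4.62 CPM in IsoCS. Its head means were higher in CSrab at both temperatures, at 11.7 CPM against 1.62 CPM in IsoCS at 29 °C and 1.36 CPM against 0.324 CPM in IsoCS at 18 °C, without a call.

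Among members lower in CSrab testes, LOC101901272 on NW_004766350 had its called strain difference at the warmer temperature. It had 3.53, 23.0 and 11.6 CPM in CSrab testes at 29 °C, against 162, 171 and 202 CPM in IsoCS testes, and 67.5, 79.2 and 37.4 CPM in CSrab testes at 18 °C, against 157, 155 and 148 CPM in IsoCS testes. All groups of heads lay between 45.0 and 71.6 CPM. The difference in testes at 29 °C was 14.0-fold (log2 change -3.81 ± 0.55, adjusted p 0.00174, edgeR), and that at 18 °C was not called. The interaction of this gene was not called in testes, while the authors' deposited adjusted p for it was under 0.05. LOC101894565 had 0.214, 0.272 and 0.295 CPM in CSrab testes at 29 °C, against 14.4, 10.5 and 2.82 CPM in IsoCS testes, a log2 change of -5.13 ± 0.82 (adjusted p 0.00289, edgeR). It was also lower in CSrab heads at 29 °C, at 0.55, 1.35 and 0.89 CPM against 1.8, 19.4 and 10.8 CPM in IsoCS. It passed the 1 CPM rule through its IsoCS libraries in both tissues, so a strain difference was built into its choice. At 18 °C its heads had 0.225, 0.179 and 0.189 CPM in CSrab, against 1.03, 5.56 and 6.62 CPM in IsoCS. The head call at 29 °C was lost under 13 of 17 alternatives, with adjusted p-values up to 0.15 (edgeR). LOC105262038 had 0.749, 0.499 and 0.338 CPM in CSrab testes at 29 °C, against 6.03, 38.6 and 2.03 CPM in IsoCS testes, so its 28.9-fold difference leaned on IsoCS replicate 2, and the call (adjusted p 0.0114, edgeR) was lost without CSrab replicate 2 and in the fit of 2 groups alone, with adjusted p-values up to 0.111. This gene passed the testis threshold through IsoCS libraries, so a testis difference was built into its choice. At 18 °C LOC101900642 had 1.79, 1.58 and 1.57 CPM in CSrab testes, against 12.9, 19.2 and 18.2 CPM in IsoCS testes, which is 10.2-fold lower in CSrab (adjusted p 0.000847, edgeR). LOC101890114 had 1.40, 0.913 and 1.57 CPM in CSrab testes at 18 °C, against 14.5, 13.8 and 6.57 CPM in IsoCS testes, which is 8.96-fold lower (adjusted p 0.00209, edgeR), and had similar levels in heads of both strains. LOC101894367 was 8.97-fold lower in CSrab testes at 18 °C, at 23.6, 36.4 and 49.2 CPM against 394, 428 and 158 CPM in IsoCS, but at 29 °C its CSrab values ran from 32.1 to 307 CPM, and the call (adjusted p 0.018, edgeR) was lost without any 1 of the CSrab replicates or IsoCS replicate 1 or 2 at 18 °C, with adjusted p-values up to 0.0744.

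In heads several strain differences were near all-or-none. The genes of this paragraph passed the head threshold of 1 CPM through CSrab libraries, so a difference was built into their choice. LOC101893651, on NW_004765402, had 4.74, 5.65 and 2.78 CPM in CSrab heads at 29 °C, and all 3 IsoCS head libraries were at 0. At 18 °C it had 7.86, 8.47 and 8.41 CPM in CSrab heads, against 0.0541, 0.227 and 0 CPM in IsoCS heads, that is 554 counts against 5, a ratio of 85.4 with an exact 95% interval of 36.4 to 264. In testes it was low in both strains and the groups overlapped, with 2.67, 3.22 and 1.31 CPM in CSrab at 29 °C beside 3.21, 0.999 and 3.38 CPM in IsoCS. LOC109612782, on NW_004765222, had 9.49, 5.38 and 10.7 CPM in CSrab heads at 18 °C, against 0, 0 and 0.0649 CPM in IsoCS heads, or 546 counts against 1. LOC105261537, on NW_004764625, had 4.11, 5.08 and 7.63 CPM in CSrab heads at 29 °C, against 0.391, 0.123 and 0.203 CPM in IsoCS heads, and 6.63, 6.17 and 7.89 CPM in CSrab heads at 18 °C, against 0.108, 0 and 0.454 CPM in IsoCS heads. Its difference was 23.4-fold at 29 °C (adjusted p 0.00834, edgeR), and at 18 °C 457 counts against 9 gave a ratio of 39.1 with an exact 95% interval of 20.4 to 86.1.

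LOC101898330, on NW_004765759, was lower in CSrab heads at both temperatures. It had 8.80, 7.91 and 5.94 CPM in CSrab heads at 29 °C, against 35.9, 40.0 and 40.1 CPM in IsoCS heads, and 5.39, 5.88 and 7.52 CPM in CSrab heads at 18 °C, against 40.2, 20.5 and 36.9 CPM in IsoCS heads. The strain ratio was 5.12-fold lower at 29 °C and 5.19-fold lower at 18 °C (adjusted p 0.00112 and 0.00166, edgeR), and in testes the strains overlapped at 29 °C, at 26.7 to 38.7 CPM in CSrab beside 30.4 to 56.7 CPM in IsoCS. At 18 °C the testis values did not overlap, at 39.4, 40.1 and 38.1 CPM in CSrab against 47.5, 47.9 and 65.1 CPM in IsoCS, and neither testis difference was called (adjusted p 0.261 at 29 °C and 0.242 at 18 °C, edgeR). Less settled were LOC101897848 and LOC101899531, both higher in CSrab heads at 29 °C. LOC101897848 had 4.19, 14.3 and 39.9 CPM in CSrab, against 0.586, 0.615 and 0.810 CPM in IsoCS (adjusted p 0.0215, edgeR), and the call was lost in the fit of 2 groups alone and without any 1 of the IsoCS replicates at 29 °C, with adjusted p-values up to 0.0961. LOC101899531 had 5.16, 7.29 and 8.15 CPM in CSrab, against 0.742, 0.954 and 0.810 CPM in IsoCS (adjusted p 0.0315, edgeR), and the call was lost under 6 of 17 alternatives, without CSrab replicate 2 at 18 °C, CSrab replicate 2 or 3 at 29 °C or any 1 of the IsoCS replicates at 29 °C, with adjusted p-values up to 0.118. LOC101895763 was 3.83-fold lower in CSrab heads at 18 °C, at 7.07, 7.35 and 8.46 CPM against 45.0, 28.5 and 14.1 CPM in IsoCS (adjusted p 0.0309, edgeR), although in testes at 18 °C it was higher in CSrab, at 26.3, 23.4 and 26.6 CPM against 6.83, 12.5 and 10 CPM in IsoCS. That head call was lost under 9 of 17 alternatives, with adjusted p-values up to 0.118: with a replicate block, in the fit of 2 groups alone, and without any 1 of the CSrab replicates at 18 °C, CSrab replicate 2 at 29 °C, IsoCS replicate 1 or 2 at 18 °C, or IsoCS replicate 1 at 29 °C.

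Whether the strain effect, averaged over temperatures, differed between testis and head was tested in a model of all 24 libraries. It differed for 257 members, 17.2%, where 11.2% of all tested genes did. The effect was more positive in testis for 128 and more negative in testis for 129, against 4.69% and 6.54% of all tested genes. On elements B, C, D and E the shares under the same expression rule were 11.5%, 10.7%, 11.2% and 12.2%, and 13.8% of genes with no element. LOC101891053 had the largest positive difference, 7.81 ± 0.73 on the log2 scale, from its near absence in CSrab heads described above. LOC101892891 followed with 5.18 ± 0.34, and LOC101893651 had the most negative difference, -7.68 ± 0.77. LOC101892094, on NW_004764734, differed by 3.71 ± 0.46: it had 28.3, 30.3 and 17.2 CPM in CSrab testes at 29 °C, against 2.29, 2.5 and 3.41 CPM in IsoCS testes, but 71.2, 70.5 and 23.7 CPM in CSrab heads at 18 °C, against 322, 257 and 150 CPM in IsoCS heads, and overlapping values in heads at 29 °C. LOC101898830 differed by -5.14 ± 0.92, with 6.56, 4.45 and 3.88 CPM in CSrab testes at 29 °C against 72.9, 7.79 and 6.76 CPM in IsoCS, and 2.02, 5.45 and 12.4 CPM in CSrab heads at 18 °C against 0.325, 0.624 and 0.454 CPM in IsoCS. The adjusted p-values of these 5 in edgeR's test lay between 2.89e-08 and 0.00112, and they were called under each of the alternatives tried. LOC101898830 had IsoCS head means of 0.506 CPM at 29 °C and 0.468 CPM at 18 °C, and its IsoCS testis mean at 29 °C leaned on replicate 1. It passed the head threshold through CSrab libraries, as did LOC101893651, and LOC101891053 passed it through IsoCS libraries. LOC101892891 passed the testis threshold through CSrab libraries. A strain difference was thus built into the choice of these genes. LOC109613281 (-6.85 ± 2.12, adjusted p 0.0434, edgeR) rested on single libraries such as IsoCS testis replicate 1 at 29 °C with 87.2 CPM, beside 0.450 and 3.00 CPM in the other replicates. Its call was lost under 18 of 28 alternatives, with a replicate block and without any 1 of 17 libraries, with adjusted p-values up to 0.414.

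The second question is how developmental temperature acted. CSrab testes gave 65 called members, 33 of them higher at 29 °C than at 18 °C and 32 lower. IsoCS testes gave 119, of which 77 were higher at 29 °C and 42 lower. CSrab heads gave 6 calls (4 up, 2 down at 29 °C) and IsoCS heads gave 14 (9 up, 5 down). Members under 1 CPM in at least 1 group of the tissue gave 3 of the 65 calls in CSrab testes and 8 of the 119 in IsoCS testes. In heads they gave 2 of the 6 in CSrab and 2 of the 14 in IsoCS. Such members named below include LOC101895675, LOC101899951, LOC105261920 and LOC101899176 in testis and LOC101890638, LOC101889243 and LOC109612782 in head. They had passed the rule through their higher groups. The members were called in testes at a lower rate than all tested genes: 4.35% against 6.73% (3.23% higher, 3.5% lower) for CSrab, and 7.97% against 10.4% (6.62% higher, 3.81% lower) for IsoCS. For CSrab heads the shares were 0.401% of the members and 0.283% of all tested genes (0.138% higher, 0.146% lower). For IsoCS heads they were 0.936% of the members and 0.697% of all tested genes (0.381% higher, 0.316% lower). Under the same expression rule the other elements B to E had 5.33% to 6.41% called in CSrab testes and 8.18% to 8.7% in IsoCS testes, so element A was the lowest of the 5 in both. In heads, with few calls everywhere, it was the highest of the 5 in both strains, the others having 0.0956% to 0.262% called in CSrab heads and 0.359% to 0.654% in IsoCS heads. Genes with no element had more calls than element A in all 4, with 6.44% and 9.39% in CSrab and IsoCS testes and 0.548% and 1.58% in CSrab and IsoCS heads. Called in at least 1 of the 4 temperature comparisons were 158 members, or 10.6%, where 13.5% of all tested genes were, and 11.1%, 11.5%, 12.4% and 12.7% on elements B, C, D and E. Of the 158, 142 (89.9%) were called in testis only, 8 (5.06%) in head only and 8 (5.06%) in both tissues, where the shares were 92.8%, 4.48% and 2.73% of the 1427 genes called among all tested in both tissues. Calls for both strain and temperature were found for 75 members, 5.02% of those tested in both tissues, and for 5.12% of all genes tested in both.

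The temperature counts also moved with single libraries. Without IsoCS testis replicate 3 at 29 °C, 122 members were called in CSrab testes and 388 in IsoCS testes. The CSrab testis count was 21 and 30 without CSrab replicates 1 and 2 at 29 °C, 23, 12 and 26 without CSrab replicates 1, 2 and 3 at 18 °C, and 39 and 43 without IsoCS replicates 1 and 2 at 18 °C. The IsoCS testis count was 68 without IsoCS replicate 1 at 29 °C, 30, 41 and 63 without IsoCS replicates 1, 2 and 3 at 18 °C, and 79 without CSrab replicate 2 at 18 °C. In CSrab heads the count was 24 without CSrab replicate 3 at 29 °C, 3 and 1 without CSrab replicates 1 and 2 at 29 °C, 1, 0 and 0 without CSrab replicates 1, 2 and 3 at 18 °C, and 3 and 3 without IsoCS replicates 1 and 3 at 18 °C. In IsoCS heads it was 3 without IsoCS replicate 1 or 2 at 29 °C or any 1 of the IsoCS replicates at 18 °C, 7 without CSrab replicate 2 at 29 °C and 8 without CSrab replicate 2 at 18 °C. Replicate numbers pair the CSrab heads (see the pairing check in the account of the processing), and with a replicate block within strain 0 members were called in CSrab heads. In that fit 292 members had an unadjusted p under 0.05 in edgeR's test, and DESeq2 without a block called 90.

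Calls were shared between strains in part. In testes 34 members were called in both strains, which is 52.3% of the CSrab list and 28.6% of the IsoCS list. The same sign was found for 33, 22 higher and 11 lower at 29 °C, or 2.21% of the members where 2.98% of all tested genes met the condition. The exception was LOC109612782. In heads both strains called 4 members in common, all in the same direction, 3 higher and 1 lower at 29 °C, or 0.268% of the members where 0.105% of all tested genes met the condition. In IsoCS 6 members were called in both tissues, which is 5.04% of the testis list and 42.9% of the head list. Over all genes tested in both tissues 29 were shared, 2.91% and 34.9% of the lists, and 2 of these had opposite signs. LOC101899217, noticed after the values had been seen, was the 1 member with opposite signs.

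Among members that changed with temperature in CSrab testes, LOC101891594 on NW_004765465 rose at 29 °C. It had 5.63, 6.67 and 5.61 CPM in CSrab testes at 29 °C, against 1.68, 0.731 and 1.31 CPM at 18 °C, a log2 change of 2.26 ± 0.29 (adjusted p 0.0031, edgeR), while IsoCS testes lay between 8.54 and 12.9 CPM at both temperatures. LOC101899176, on NW_004764858, fell, with 1.5, 0.862 and 0.464 CPM in CSrab testes at 29 °C, against 7.32, 8.95 and 6.11 CPM at 18 °C, and 0.949, 1.80 and 0.735 CPM in IsoCS testes at 29 °C, against 3.70, 4.41 and 3.55 CPM at 18 °C. Its log2 change in CSrab was -2.97 ± 0.45 (adjusted p 0.00574, edgeR). In both of these the 29 °C and 18 °C replicates of CSrab did not overlap, and the calls held under each alternative tried. LOC105261679 and LOC101901505 rose 3.47-fold and 2.92-fold in CSrab testes (adjusted p 0.0222 and 0.021, edgeR), and LOC101901272 fell 4.84-fold (adjusted p 0.0292), but these calls were lost under 4, 4 and 5 of 18 alternatives. For LOC105261679 these were leaving out CSrab replicate 2 or 3 at 18 °C or replicate 1 or 2 at 29 °C, and for LOC101901505 the fit of 2 groups alone and leaving out any 1 CSrab replicate at 18 °C. For LOC101901272 they were the fit of 2 groups alone and leaving out CSrab replicate 1 or 2 at 18 °C, CSrab replicate 3 at 29 °C or IsoCS replicate 1 at 18 °C. The adjusted p-values went up to 0.104, 0.0985 and 0.109.

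In IsoCS testes LOC105261920 fell 18.9-fold at 29 °C, and LOC101900429 fell 3.02-fold. LOC101900429, on NW_004765134, had 3.77, 3.70 and 3.62 CPM in IsoCS testes at 29 °C, against 10.9, 12.4 and 10.3 CPM at 18 °C (adjusted p 0.00642, edgeR). It was also the 1 member that fell in heads of both strains, with 8.63, 7.37 and 7.63 CPM in CSrab heads at 29 °C, against 13.5, 16.0 and 18.7 CPM at 18 °C, and 11.6, 9.48 and 9.93 CPM in IsoCS heads at 29 °C, against 24.7, 34.2 and 32.8 CPM at 18 °C. The replicates of the temperatures did not overlap in these 3 comparisons. The head calls had adjusted p-values of 0.0456 in CSrab and 0.00653 in IsoCS (edgeR), the second lost in the fit of 2 groups alone with an adjusted p of 0.0989. The CSrab head call was lost under 15 of 18 alternatives, among them a replicate block, a replicate block within strain and leaving out any 1 of 11 head libraries (all but CSrab replicate 3 at 29 °C), with adjusted p-values up to 0.246. LOC101899951 rose 9.64-fold in IsoCS testes, at 7.87, 7.14 and 2.18 CPM at 29 °C against 0.653, 0.441 and 0.664 CPM at 18 °C (adjusted p 0.0122, edgeR), a call lost in the fit of 2 groups alone and without IsoCS replicate 1 or 2 at 18 °C, with adjusted p-values up to 0.061. Its testis means at 18 °C were under 1 CPM in both strains, as were those of LOC101895675. Both genes passed the testis threshold through 29 °C libraries, so a rise was built into their choice. LOC101895675, LOC101898249 and LOC109612051 were called in IsoCS testes with adjusted p-values of 0.0395, 0.0481 and 0.0292 (edgeR) and lost the call under 9, 13 and 6 of 18 alternatives, including leaving out any 1 IsoCS replicate at 18 °C, with adjusted p-values up to 0.144, 0.145 and 0.0862.

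In heads LOC101890638, on NW_004764524, rose in both strains at 29 °C. It had 5.46, 5.82 and 6.92 CPM in CSrab heads at 29 °C, against 1.12, 0.753 and 0.615 CPM at 18 °C, and 5.39, 6.55 and 4.98 CPM in IsoCS heads at 29 °C, against 0.595, 1.08 and 1.17 CPM at 18 °C. The rise was 7.31-fold in CSrab and 5.95-fold in IsoCS (adjusted p 0.011 and 0.0077, edgeR). Its head means at 18 °C were 0.83 CPM in CSrab and 0.947 CPM in IsoCS. It thus passed the head threshold of 1 CPM through its 29 °C libraries, so a temperature difference was built into its choice. The IsoCS call had an adjusted p of 0.0989 in the fit of 2 groups alone. In CSrab the call was lost with a replicate block within strain, in the fit of 2 groups alone and without CSrab replicate 2 or 3 at 18 °C, with adjusted p-values up to 0.119. LOC101889473 had 18.7, 18.6 and 21.2 CPM in CSrab heads at 29 °C, against 9.83, 9.83 and 9.74 CPM at 18 °C, and LOC101891569, on the scaffold with most members, had 39.8, 51.1 and 48.4 CPM in CSrab heads at 29 °C, against 22.4, 26.2 and 25.1 CPM at 18 °C. These rises of 1.99-fold and 1.89-fold (adjusted p 0.0263 and 0.0154, edgeR) were lost in the fit of 2 groups alone, with a block for replicates inside each strain and without any 1 CSrab replicate at 18 °C or CSrab replicate 2 at 29 °C, and that of LOC101889473 also without CSrab replicate 1 at 29 °C or IsoCS replicate 1 or 3 at 18 °C, with adjusted p-values up to 0.167 and 0.231. In IsoCS heads LOC101897616 had 10.7, 11.3 and 9.97 CPM at 29 °C, against 6.06, 4.37 and 4.80 CPM at 18 °C, and LOC101897669 had 22.2, 28.1 and 22.8 CPM at 29 °C, against 11.8, 10.4 and 13.8 CPM at 18 °C. Both were called (adjusted p 0.0273 and 0.0296, edgeR), and both calls were lost in the fit of 2 groups alone and without IsoCS replicate 2 or 3 at 18 °C, IsoCS replicate 1 or 2 at 29 °C or CSrab replicate 2 at 29 °C, that of LOC101897669 also without IsoCS replicate 1 or CSrab replicate 2 at 18 °C and with a replicate block, with adjusted p-values up to 0.129. The means in heads of the other strain were also higher at 29 °C than at 18 °C. In IsoCS heads they were 19.3 CPM against 11.3 CPM for LOC101889473 and 38.7 CPM against 33.6 CPM for LOC101891569. In CSrab heads they were 10.7 CPM against 9.02 CPM for LOC101897616 and 27.9 CPM against 15.9 CPM for LOC101897669.

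A pair of members on one scaffold, NW_004765293, moved in parallel. LOC101888429 had 23.8, 21.8 and 32.8 CPM in IsoCS heads at 29 °C, against 87.7, 55.0 and 64.0 CPM at 18 °C, and LOC109612838 had 21.6, 18.2 and 27.6 CPM in IsoCS heads at 29 °C, against 70.4, 44.4 and 49.4 CPM at 18 °C. In testes the values were as close, at 16.5, 17.5 and 16.1 CPM of LOC101888429 and 16.7, 19.2 and 17.5 CPM of LOC109612838 in IsoCS at 18 °C. Genes that overlap or are near copies can share or lose reads in counting, and how such reads were counted is not given in the sources used here, so these 2 values may not be separate measurements. Both fell in IsoCS heads at 29 °C (adjusted p 0.0469 and 0.0447, edgeR), and both calls were lost under 13 and 12 of 18 alternatives, which included a replicate block, the fit with no filter on low counts and leaving out any 1 of the IsoCS replicates at 18 °C, with adjusted p-values up to 0.200 and 0.194. In CSrab heads LOC101888429 had 19.3, 16.9 and 10.7 CPM at 29 °C, against 45.9, 38.6 and 34.2 CPM at 18 °C. LOC109612838 had 19.2, 16.4 and 12.3 CPM in CSrab heads at 29 °C, against 40.8, 38.7 and 30.4 CPM at 18 °C. These CSrab values did not overlap between temperatures either, but the falls were not called.

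The third question is whether the strain effect depends on temperature. Taken as the strain effect at 29 °C minus that at 18 °C, this interaction was called for 4 members in testes, or 0.268%, where 0.249% of all tested genes were called, and for 0 members in heads, where 0.0243% of all tested genes were. In heads 63 members, or 4.21%, had an unadjusted p under 0.05 in edgeR's test, where 4.97% of all tested genes did, and DESeq2 called 2 members. The deposited tables hold the authors' own adjusted p for the interaction. It was under 0.05 for 18 of 1486 members with a value in testes, where it was for 247 of all 13448 genes with a value. In heads it was under 0.05 for 2 of 1487 members, LOC101891569 and LOC101900298, and for 50 of all 13077 genes with a value. Without IsoCS testis replicate 3 at 29 °C 11 members were called in testes. Leaving out CSrab replicate 2 at 29 °C left 2, and leaving out CSrab replicate 1 at 29 °C, any 1 CSrab replicate at 18 °C, IsoCS replicate 1 or 2 at 29 °C, or IsoCS replicate 1 or 2 at 18 °C left 1. With a replicate block, over all groups or within strain, 1 member was called.

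LOC109612782 was the member whose interaction was called under every one of the 17 alternatives. Its testis values were 4.31, 4.68 and 3.8 CPM in CSrab at 29 °C, 4.08, 3.05 and 7.29 CPM in IsoCS at 29 °C, 27.1, 41.3 and 34.5 CPM in CSrab at 18 °C, and 1.55, 1.46 and 1.73 CPM in IsoCS at 18 °C. The strains overlapped at 29 °C and stood 21.7-fold apart at 18 °C. At 29 °C it fell 8.04-fold in CSrab testes (adjusted p 0.00122, edgeR), and it was higher at 29 °C in IsoCS testes, the one member called in opposite directions in testes of the 2 strains. The interaction was -4.61 ± 0.43 (SE) on the log2 scale with an adjusted p of 0.00381 in edgeR's test. In CSrab heads it had 0.0423, 0 and 0.115 CPM at 29 °C, against 9.49, 5.38 and 10.7 CPM at 18 °C, or 5 counts against 546, a ratio of 135 of 18 °C over 29 °C with an exact 95% interval of 57.7 to 419. That head call (adjusted p 0.0246, edgeR) was lost under 9 of 18 alternatives with adjusted p-values up to 0.0986, among them a replicate block within strain and leaving out CSrab replicate 1 or 2 at 29 °C, any 1 CSrab replicate at 18 °C, or IsoCS replicate 1 or 3 at 18 °C. IsoCS heads had 1 count or fewer per library at both temperatures. The gene thus passed the head threshold through CSrab heads at 18 °C alone. Its temperature ratio in CSrab heads and its strain difference in heads were therefore built into its choice.

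LOC105261920, on NW_004765351, had the interaction of opposite sign. Its testis values were 3.99, 4.49 and 3.88 CPM in CSrab at 29 °C, against 0.670, 0.699 and 0.852 CPM in IsoCS, and 5.03, 7.25 and 3.69 CPM in CSrab at 18 °C, against 23.4, 12.5 and 6.5 CPM in IsoCS. CSrab was thus higher at 29 °C and lower at 18 °C, and both strain differences were called. The interaction was 3.88 ± 0.60 (adjusted p 0.037, edgeR). LOC101891938 had 20.9, 23.7 and 32.0 CPM in CSrab testes at 18 °C, against 4.71, 5.08 and 5.41 CPM in IsoCS testes, and overlapping values at 29 °C, 6.59, 9.58 and 11.4 CPM in CSrab beside 8.74, 9.09 and 6.73 CPM in IsoCS, and an interaction of -2.17 ± 0.34 (adjusted p 0.037). It lies on NW_004765465, the scaffold of LOC101891594. LOC101901421 had 85.1, 91.4 and 75.7 CPM in CSrab testes at 29 °C against 93.7, 102 and 101 CPM in IsoCS, and 87.3, 84.2 and 77.5 CPM in CSrab testes at 18 °C against 54.8, 55.0 and 52.9 CPM in IsoCS, with an interaction of -0.85 ± 0.14 (adjusted p 0.0497). These 3 interactions were lost under 12, 13 and 14 of 17 alternatives, which included a replicate block and leaving out any 1 CSrab replicate at 18 °C, IsoCS replicate 1 or 2 at 18 °C, CSrab replicate 1 or 2 at 29 °C or IsoCS replicate 1 or 2 at 29 °C, with adjusted p-values up to 0.128, 0.128 and 0.169.

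Averaged over strains, the effect of temperature was different in testis and head for 121 members, 8.09%, where 7.03% of all tested genes differed. It was more positive in testis for 43 and more negative in testis for 78, against 2.69% and 4.34% of all tested genes. The split depended on the scaling of the libraries: with DESeq2 size factors 63 members were more positive in testis and 48 more negative, and the DESeq2 Wald test gave 98 and 75. LOC101890638 was more negative in testis by -3.12 ± 0.40, from its rise in heads, and LOC105261920 by -2.86 ± 0.42. LOC101889243, on NW_004765093, differed by -2.91 ± 0.52: it had 2.92, 7.17 and 16.9 CPM in CSrab heads at 29 °C, against 0.786, 0.430 and 1.47 CPM at 18 °C, and 10.9, 10 and 9.92 CPM in CSrab testes at 29 °C, against 17.8, 18.4 and 19.9 CPM at 18 °C. On the positive side, LOC101895675 differed by 4.62 ± 0.99 and LOC101893651 by 3.76 ± 0.85. The adjusted p-values of these 5 lay between 0.000264 and 0.0151 in edgeR's test. The call of LOC101893651 was lost without IsoCS head replicate 2 at 18 °C, with an adjusted p of 0.115. LOC101895675 had 0.749, 0.499 and 9.5 CPM in CSrab testes and 5, 13.7 and 2.18 CPM in IsoCS testes at 29 °C. Its testis means at 18 °C were 0.228 CPM in CSrab and 0.242 CPM in IsoCS. It thus passed the testis threshold of 1 CPM through its 29 °C libraries. LOC101890638 and LOC101889243 passed the head threshold likewise, so a temperature difference was built into the choice of these genes. LOC109612782 (3.92 ± 1.13, adjusted p 0.0481) lost its call under 20 of 28 alternatives, among them DESeq2 size factors, with adjusted p-values up to 1. The count was 245 without IsoCS testis replicate 3 at 29 °C, 77 without IsoCS head replicate 2 at 29 °C, 74 without CSrab head replicate 2 at 18 °C, 77 and 74 without CSrab testis replicates 1 and 2 at 18 °C, and 78 without IsoCS testis replicate 1 at 18 °C.

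The members lay on 285 scaffolds, 75 of which held 1 member. The order of scaffolds along the chromosome, and of genes within them, was not used here. The 49 scaffolds with at least 10 members held 740 members, 179 of them called for strain in at least 1 of the 4 comparisons. The share per scaffold ran from 0% to 53.8% with a median of 23.1%, and 3 of the 49 had 0 calls. Both directions were found on 28 of the 46 with at least 1 call. On these 49 scaffolds the medians of the log2 strain change stayed near 0, from -0.30 to 0.36 in testes at 29 °C, from -0.28 to 0.28 in testes at 18 °C, from -0.22 to 0.33 in heads at 29 °C and from -0.27 to 0.20 in heads at 18 °C. Some smaller scaffolds had medians further from 0. NW_004764911, with 5 members and 0 strain calls, ran from -7.80 in heads at 29 °C to 2.05 in testes at 18 °C. Of all 285 scaffolds, 117 had 0 strain calls.

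**Figure D5:**
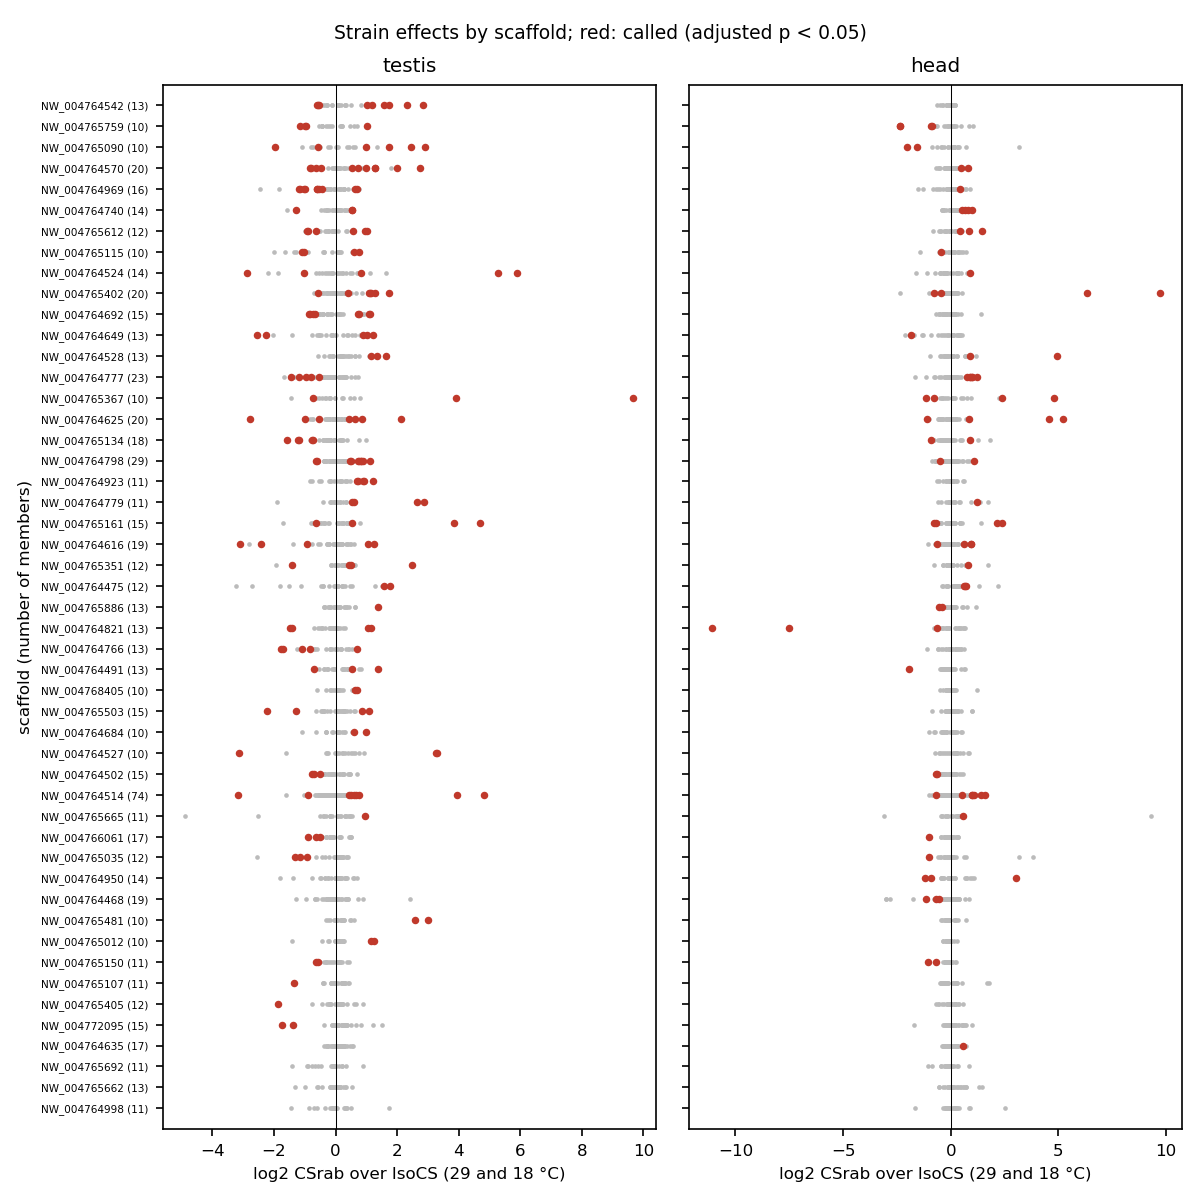
Log2 change of CSrab over IsoCS (horizontal axis, both temperatures) for each member on the 49 scaffolds with at least 10 members (vertical axis, with the number of members), in testis (left) and head (right); red points were called. Scaffolds are ordered by the share of members called for strain in any of 4 comparisons, from 53.8% at the top to 0% at the bottom, and called points stand on both sides of 0 on most of them.

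NW_004764514 held most members, 74. For strain 14 of them were called, or 18.9%, 11 higher and 3 lower in CSrab, and for temperature 12 were called. LOC101890926, LOC101894367, LOC101895238, LOC101894079, LOC101891569 and LOC101897669 lie on it. LOC101898177 on the same scaffold had 38.2, 43.2 and 66.5 CPM in CSrab heads at 29 °C, against 14.8, 20.9 and 13.1 CPM in IsoCS heads, a 3.03-fold difference (adjusted p 0.00686, edgeR) that had an adjusted p of 0.0644 in the fit of 2 groups alone. LOC101894192 had 9.95, 8.26 and 11.4 CPM in CSrab testes at 29 °C, against 19.2, 21.0 and 14.7 CPM in IsoCS testes (adjusted p 0.0165, edgeR), and lost that call in the fit of 2 groups alone and without CSrab replicate 1 or 2 or IsoCS replicate 1 or 2 at 29 °C, with adjusted p-values up to 0.127.

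Among the scaffolds with at least 10 members, the 3 with the highest shares were NW_004764542 with 7 of 13 members called for strain, NW_004765090 with 5 of 10 and NW_004765759 with 5 of 10. The calls on these 3 did not share a direction: 4 members were higher and 3 lower in CSrab on NW_004764542, 2 higher and 3 lower on NW_004765090, and 1 higher and 4 lower on NW_004765759. On NW_004764542, LOC101889462 had 30.8, 37.6 and 35.7 CPM in CSrab testes at 18 °C, against 12.6, 10.5 and 12 CPM in IsoCS testes, a 2.96-fold difference (adjusted p 0.000415, edgeR). LOC101890131 on that scaffold was lower in CSrab testes at 29 °C, at 102, 110 and 96.2 CPM against 140, 145 and 160 CPM in IsoCS (adjusted p 0.00821, edgeR), a call with an adjusted p of 0.102 in the fit of 2 groups alone. LOC101891331 had 2.85, 3.53 and 3.23 CPM in CSrab testes at 18 °C, against 0.925, 1.28 and 0.664 CPM in IsoCS testes, or 3.35-fold more (adjusted p 0.00854, edgeR). The 3 genes of this scaffold thus moved in different directions by different factors. Some scaffolds with fewer members had higher shares, such as NW_004764732 with 6 of 8.

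On NW_004765090, LOC101901256 had 7.66, 13.3 and 5.74 CPM in CSrab testes at 29 °C, against 1.14, 1.20 and 1.18 CPM in IsoCS testes, a 7.55-fold difference (adjusted p 0.0046, edgeR). LOC105261813 had 10.8, 14.2 and 16.2 CPM in CSrab testes at 29 °C, against 3.69, 3.15 and 5.53 CPM in IsoCS testes, or 3.32-fold more (adjusted p 0.00163, edgeR). In heads at 29 °C LOC101900731 on this scaffold was 4.12-fold lower in CSrab, at 8.17, 6.39 and 5.60 CPM against 19.5, 24.1 and 39.3 CPM in IsoCS (adjusted p 0.00374, edgeR). On NW_004765759, beside LOC101898330, LOC101898676 had 33.0, 34.2 and 28.8 CPM in CSrab testes at 29 °C, against 65.6, 70.9 and 79.0 CPM in IsoCS testes, a 2.24-fold deficit (adjusted p 0.000268, edgeR). Its heads lay between 5 and 10.1 CPM in all groups, and the strains overlapped. LOC101897979 was 2.02-fold higher in CSrab testes at 29 °C, at 6.49, 8.35 and 5.74 CPM against 3.46, 3.10 and 3.59 CPM in IsoCS (adjusted p 0.00883, edgeR), a call with an adjusted p of 0.13 in the fit of 2 groups alone.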

How the data were processed

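PolyA RNA of house fly testis and head was sequenced from a TruSeq stranded mRNA kit, per the labels. For each tissue the authors deposited a table of read counts per gene (whole numbers, no normalization) and an adjusted p-value per gene for the strain-by-temperature interaction, per the file headers. HISAT2, SAMtools, HTSeq and DESeq2 are named, per the submitters' processing notes; their versions, the genome build, the strand setting and the counting of shared reads are not given in the sources used here. All 24 count columns were matched to a library by its label, with 0 such columns unmatched. The reference gene table held 1419 of the 1495 members' gene IDs and gave another symbol for 0. The members, lists and naming rule were chosen with earlier results of these data known.

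Each tissue was fitted in edgeR 4.0.16 (limma 3.58.1, R 4.3.3) with 1 coefficient per group. This followed filterByExpr (minimum count 10, minimum total 15) and TMM scaling. The quasi-likelihood F test was used, with p-values adjusted after Benjamini and Hochberg over all tested genes. The p-values rest on the spread between biological replicates, pooled over all groups of a fit and moderated across genes. They do not measure the spread of the 3 replicates in the 2 compared groups alone. Both tissues were fitted together for the differences between tissues. The standard error is the log2 change divided by the square root of F. The rule for members used CPM on column totals; CPM printed per library use TMM-scaled sizes. Folds against groups at 0 use a floor of 3 counts per library; intervals and floors cover counting error only. The script was tested on simulated counts. Tables and plots used Python 3.11.15, pandas 2.3.3, numpy 2.4.6 and matplotlib 3.10.9.

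Named genes are members called in all 4 strain comparisons with the same sign; per strain and temperature comparison up to 3 largest changes each way among called members with at least 5 CPM in the higher group and replicates that do not overlap; called interactions; up to 3 largest differences between tissues each way; the 5 highest levels per tissue and the 3 highest and 3 lowest ratios; members of the scaffold with most members and of the 3 with the highest share called; and genes next to the thresholds. Heat shock symbols were found for 2 of 6 and sex determination symbols for 1 of 5, none of them members.

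Replicate numbers recur in every group. Deviations of same-numbered libraries at 29 °C and 18 °C correlated above 0.1 in all 3 pairs in CSrab testes (0.309, 0.156 and 0.313), IsoCS testes (0.225, 0.2 and 0.522) and CSrab heads (0.552, 0.261 and 0.456), but not in IsoCS heads (-0.14, 0.228 and 0.365) or between strains. Alternatives were DESeq2 size factors, the DESeq2 1.42.0 Wald test, no filter, a replicate block over all groups or within strain, fits of the 2 groups alone, and leaving out each library. No sequences were used.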

Additional observations from a re-analysis of the deposited data

Results flagged for a closer look

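Results are listed here because the effect of one factor differed between groups by a test of the difference itself. The strain effect differed between 29 °C and 18 °C in testes for 4 members (edgeR's quasi-likelihood test): LOC109612782 (-4.61 on the log2 scale), LOC101891938 (-2.17), LOC105261920 (3.88) and LOC101901421 (-0.85). The strain effect differed between testis and head for 257 members. The named ones are LOC101891053 (7.81), LOC101892891 (5.18) and LOC101892094 (3.71), with a more positive effect in testis, and LOC101893651 (-7.68), LOC109613281 (-6.85) and LOC101898830 (-5.14), with a more negative one.

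The temperature effect differed between testis and head for 121 members. LOC101895675 (4.62), LOC109612782 (3.92) and LOC101893651 (3.76) had the more positive effect in testis, and LOC101890638 (-3.12), LOC101889243 (-2.91) and LOC105261920 (-2.86) the more negative one. Single samples were not tested for standing apart, since every group has 3 libraries.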

How the results depend on the processing

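Counts of called members depended on how the spread was estimated. Fits of the 2 groups alone called 39 and 413 members for strain in testes at 29 °C and 18 °C, 17 and 32 in heads, and for temperature 8 in IsoCS testes, 0 in CSrab heads and 0 in IsoCS heads (171 and 305 at an unadjusted p under 0.05 in edgeR). The DESeq2 Wald test called 195 and 152 for strain in heads at 29 °C and 18 °C, 135 and 224 for temperature in CSrab and IsoCS testes, 90 and 102 in CSrab and IsoCS heads, and 18 and 2 for the interaction in testes and heads. With a replicate block 8 members were called for temperature in IsoCS heads and 1 for the interaction in testes; with the block within strain 0 in CSrab heads, 32 in IsoCS heads and 1 for the interaction. Without a filter these were 9 in IsoCS heads and 2 for the interaction. The block moved no other count by more than 1.5 times.

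Leaving out 1 library gave 118 to 387 strain calls in testes at 29 °C, 105 to 268 at 18 °C, 31 to 115 in heads at 29 °C and 29 to 77 at 18 °C; 12 to 122 temperature calls in CSrab testes, 30 to 388 in IsoCS testes, 0 to 24 in CSrab heads and 3 to 21 in IsoCS heads; 1 to 11 interactions in testes; and 74 to 245 differences of the temperature effect between tissues. The 102 pairs of a named gene and a comparison kept their sign under all 1889 alternatives; 57 kept their call under all of theirs and 45 lost it under at least 1. The cause was not tested. For the count of members, a CPM minimum 0.5 in the rule kept 1599 and a CPM minimum 2 kept 1385.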
